A study of Mus musculus with 5 samples.

Results

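The 5 arrays of this study fell into expression states that cut across its treatment groups, and the comparison described here is between these states. Control 2 and TNF-LTBR 1 formed side 1, control 3 and TNF-LTBR 2 formed side 2, and together they make 4 of the 5 arrays. The sides were chosen by the correlations between the arrays' own expression values, so differences between them are given as descriptions, with no test. Control 1 was placed on neither side and is shown for its position.

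RNA was taken from mouse cells labelled as cultured aortic endothelial cells of C57BL/6J background. All cultures were kept in a serum-rich endothelial medium with heparin and endothelial growth supplement, and were fed a day before stimulation. By title, 3 arrays were controls and 2 were TNF-LTBR, each with a time of 24 h. The treatment note names only PBS for every sample, so only the titles set the TNF-LTBR arrays apart. The sources used here do not give the agonists, their doses, or the number of animals, passage and purity of the cultures. Whether arrays with the same group name come from different cultures or mice is not stated either, so their spread may be technical.

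Endothelial cells line blood vessels and are recognised by junction and receptor proteins such as PECAM-1, VE-cadherin and von Willebrand factor. The aortic wall also holds fibroblasts, which make collagens and proteoglycans, smooth muscle cells, which make contractile proteins, and macrophages, which make lysozyme and complement component C1q. Cells that sense interferon activate STAT and IRF transcription factors, which switch on a shared set of antiviral genes. Tumour necrosis factor and the lymphotoxin β receptor act mainly through NF-κB, a transcription factor that drives chemokines and adhesion molecules.

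Defining endothelial genes were unevenly detected on both sides. Vwf, which encodes von Willebrand factor, read 7.1 and 5.8 on side 1 (control 2, then TNF-LTBR 1) and 2.3 and 2.9 on side 2 (control 3, then TNF-LTBR 2), on the linear intensity scale of the deposited values. The endothelial receptor gene Tie1 read 2.0 to 5.5 on these 4 arrays and 45.5 on control 1. Pecam1, Cdh5, Tek and Cldn5 lay below the intensity filter, and Pecam1 read 161 and 121 on side 1 and 56.0 and 52.6 on side 2. Of 21 endothelial genes with a probe set, 8 passed the filter. Among them the receptor gene Eng read 1550 to 1858 over all 5 arrays, the receptor gene Kdr 255 to 364 and the fenestral diaphragm gene Plvap 401 to 759, and Emcn, which encodes endomucin, read 661 and 477 on side 1 and 81.4 and 78.4 on side 2. The collagen gene Col1a2 read 17597 to 20691, and the fibroblast and pericyte receptor genes Pdgfra and Pdgfrb were also above the filter on every array. Probe sets differ in response, so levels are not compared between genes, and the share of endothelial cells in the cultures cannot be read from them. Myh11, a defining gene of mature smooth muscle, read at most 41.3, and the leukocyte gene Ptprc at most 75.2. The summed intensity of the 21 endothelial genes was 5325 and 4778 on side 1, 5013 on control 1, and 3716 and 3931 on side 2. This sum weighs genes by the response of their probe sets. Eng, alike on both sides, made up a large part of it, so it is not a measure of all 21 genes. In such bulk RNA, fewer cells of a type and less RNA per cell cannot be told apart.

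**Figure D1:**
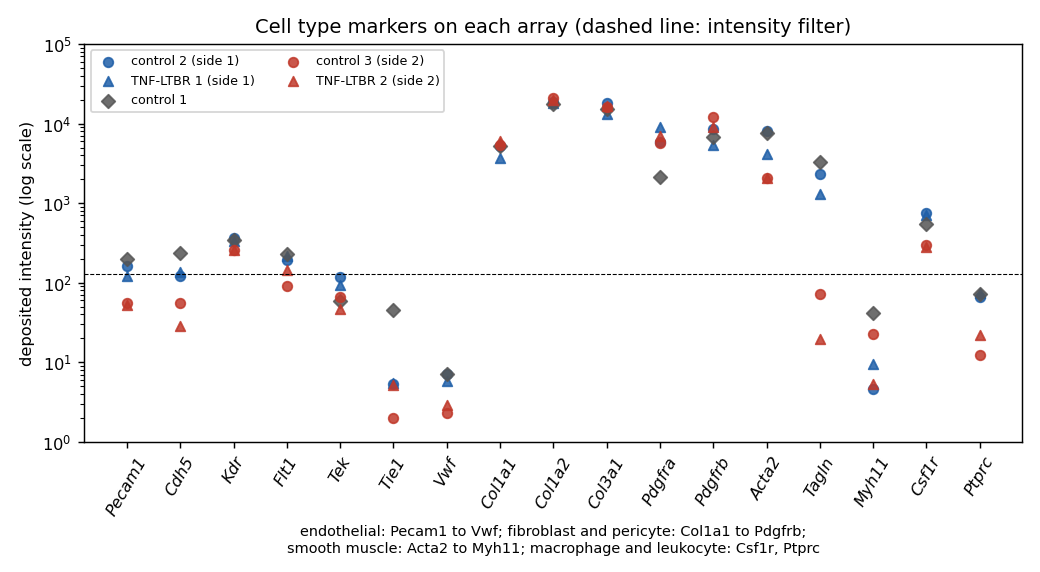
Deposited intensity (log axis) of 17 cell type markers on each of the 5 arrays, side 1 in blue, side 2 in red, control 1 in grey, with circles for controls and triangles for TNF-LTBR. Vwf stays at 7.2 or below on every array, the collagen genes are bright on every array, and Tagln separates side 2 (72.1 and 19.4) from the other arrays.

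Array-wide measures were compared before the genes. Array medians were 113.3 and 120.7 on side 1, 110.0 on control 1, and 115.2 and 109.9 on side 2. The ratio of the 3′ to the 5′ probe set of Gapdh, a sign of RNA integrity, lay between 0.749 and 0.783 on all 5 arrays. Control transcripts added to the RNA before labelling averaged 698 and 733 on side 1, 630 on control 1, and 970 and 885 on side 2, a ratio of 1.29 between sides, and the hybridization controls differed by a ratio of 1.16 in the same direction. The part of these controls in the differences below was not tested. Xist, the RNA of the inactive X chromosome, read 5885 and 4265 on side 1, 5357 on control 1, and 10975 and 9157 on side 2. The Y-linked genes Eif2s3y, Kdm5d and Uty read at most 88.4 on any array.

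Side accounted for most of the variation among the 4 arrays. On the log2(intensity + 16) scale used for all differences, the Pearson correlation over 10916 genes was 0.976 between control 2 and TNF-LTBR 1 and 0.978 between control 3 and TNF-LTBR 2, while the 4 correlations across sides ran from 0.875 to 0.903. Control 1 correlated at 0.946 and 0.934 with the arrays of side 1 and at 0.931 and 0.935 with those of side 2. The 2 controls on opposite sides, control 2 and control 3, correlated at 0.895. Of the sum of squares among the 4 arrays, 80.7% lay between the sides, 13.4% between TNF-LTBR and control, and 5.9% in the side-by-treatment term. These values chose the sides or come from the same contrast, and they carry no test.

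For each gene the side difference was taken within each treatment group, as control 3 minus control 2 and as TNF-LTBR 2 minus TNF-LTBR 1. The mean of these 2 matched differences is the side difference. Their SD (n = 2) describes how far the treatment groups differ in it and is not an error over repeated cultures. The sides were chosen for arrays that correlate, which can make this SD too small. A gene was counted as apart where both matched differences had the same sign and a size of at least 1 (2-fold) and the arrays of the sides did not overlap. By this rule 311 genes (2.85%) were higher on side 2 and 476 (4.36%) were lower, and these shares are the background for every count below. The lower genes reached further. On the log2(intensity + 16) scale both matched differences were at least 8-fold for 56 lower and 16 higher genes, and at least 32-fold for 12 lower genes and 1 higher gene. At the border, 17 genes lay within 0.02 inside the limit, such as Cd80 with a smaller matched difference of -1.02, and 30 lay within 0.02 outside it, such as Trim12c with 0.999.

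**Figure D2:**
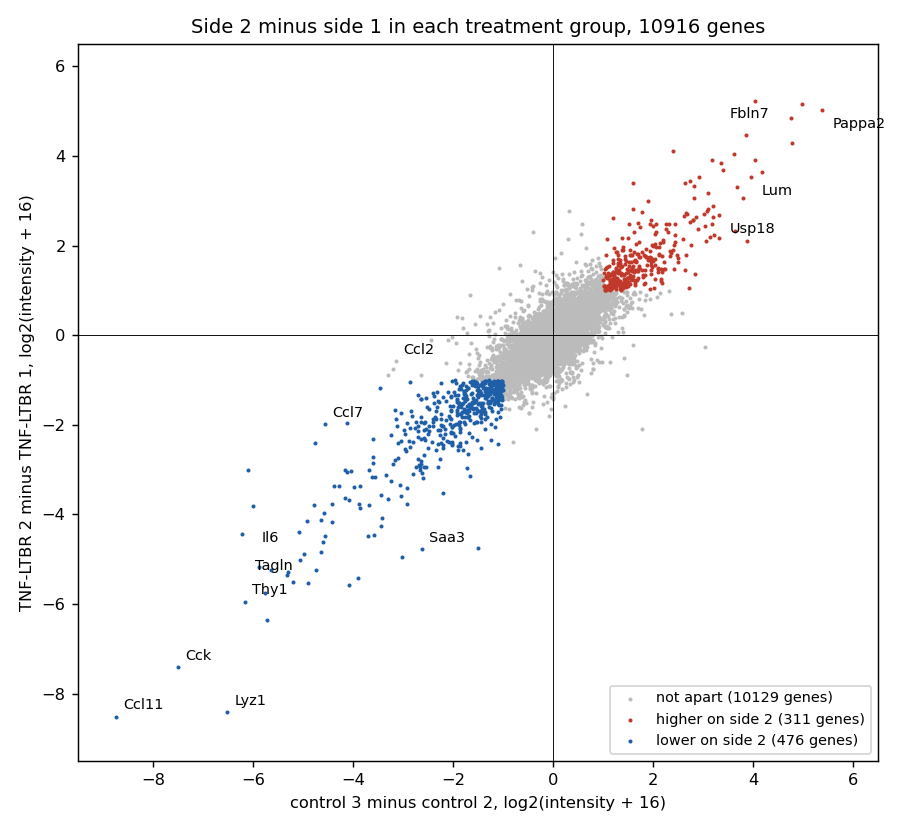
Each point is 1 of 10916 genes, with control 3 minus control 2 on the horizontal axis and TNF-LTBR 2 minus TNF-LTBR 1 on the vertical axis, both in log2(intensity + 16). The 311 red and 476 blue genes are those apart between the sides. The points run along the diagonal (Pearson r 0.864 across genes, which are not independent replicates), and the longest tail is at the lower left, where Ccl11, Cck, Lyz1 and Thy1 lie.

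The marker genes supplied with the definition of the sides show its size. Ccl11 encodes eotaxin, a chemokine that attracts eosinophils. It read 7921 and 7872 on side 1, 218 on control 1, and 2.6 and 5.6 on side 2. Both side 1 arrays were bright and both side 2 arrays were at the bottom of the scale, with a side difference of -8.62 on the log2(intensity + 16) scale. Where 1 side is this dim, the size depends on the value added before the logarithm, and with 64 in place of 16 it was -6.87 for Ccl11. The same holds for the other genes below that are dim on 1 side, whose differences show a direction and not an exact fold. Thy1 encodes a surface glycoprotein common on fibroblasts. It read 12215 and 8871 on side 1, 2583 on control 1, and 155 and 128 on side 2. Its side difference was -6.06 ± 0.15 (SD, n = 2 matched differences), with no overlap.

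Lyz1 and Lyz2 encode lysozymes that cut bacterial cell walls. Lyz2, the form typical of macrophages, read 3409 and 3934 on side 1, 1088 on control 1, and 186 and 66.5 on side 2, a side difference of -4.83 ± 1.06 (SD, n = 2). Lyz1 read 5505 and 6014 on side 1, 1547 on control 1, and 44.3 and 1.7 on side 2, a side difference of -7.46 (-6.11 with 64 added). They are neighbouring, near-identical genes, so how the signal divides between them is uncertain. Lum, which encodes the collagen-binding proteoglycan lumican, ran the other way. It read 818 and 1104 on side 1, 1145 on control 1, and 12967 and 12933 on side 2, a side difference of 3.75 ± 0.30.

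Among genes lowest on side 2, several encode secreted or surface proteins. Cck encodes the peptide hormone cholecystokinin and read 3126 and 4188 on side 1 against 1.2 and 8.6 on side 2. Control 1 read 1.8 and so sat with side 2. The side difference was -7.46, and -5.74 with 64 added. Igfbp6, which encodes a binding protein for insulin-like growth factors, read 5552 and 3858 on side 1, 277 on control 1, and 77.9 and 90.8 on side 2. Pdpn, which encodes podoplanin, a membrane protein of lymphatic endothelium and of activated fibroblasts, read 7963 and 11152 on side 1, 1199 on control 1, and 221 and 328 on side 2. In each of these the side 1 arrays were both above both side 2 arrays. Rgs16, which encodes a regulator of G-protein signalling, differed by -6.05, the protease inhibitor gene Ctla2a by -5.76, the secreted protein gene Wfdc17 by -5.33, the folate hydrolase gene Folh1 by -5.30 and the carboxypeptidase-like gene Cpxm1 by -5.36.

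Genes highest on side 2 also included secreted proteins. Pappa2 encodes a metalloprotease that cleaves an insulin-like growth factor binding protein, and it read 101 and 132 on side 1, 256 on control 1, and 4832 and 4845 on side 2. Its side difference was 5.20 ± 0.24 (SD, n = 2). Ifi27l2a, an interferon-induced gene, read 156 and 138 on side 1, 1142 on control 1, and 5403 and 5495 on side 2, a side difference of 5.07 ± 0.13. Neither gene overlapped between sides. Lepr, which encodes the leptin receptor, read 91.9 and 84.4 on side 1 and 1944 and 1238 on side 2, but 3631 on control 1, above all 4. The other genes chosen by size in this direction had side differences of 4.80 for the fibulin gene Fbln7, 4.53 for the carboxylesterase gene Ces1g, 4.63 for Crybg1, 4.17 for the spondin gene Spon1, 3.83 for the aldehyde oxidase gene Aox3, 3.60 for Galnt15 and 3.54 for Clvs2.

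**Figure D3:**
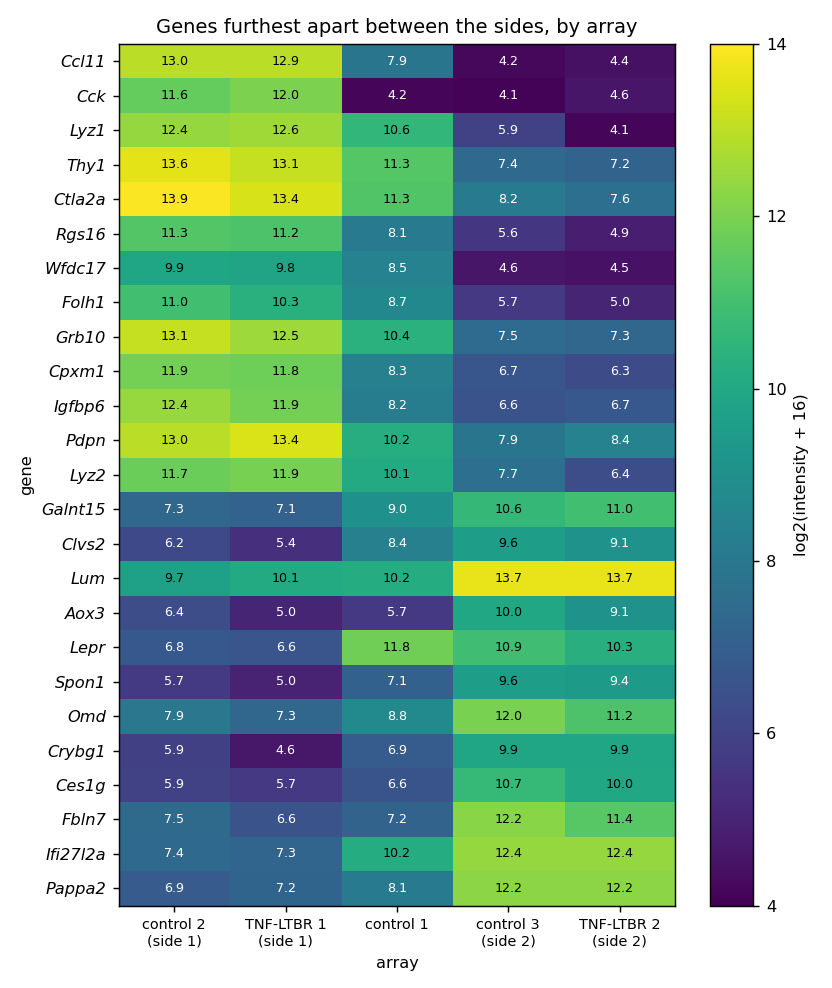
Values of log2(intensity + 16) on each array for the 12 genes furthest apart in each direction (by the smaller matched difference) and Lyz2. The upper 13 genes are bright on control 2 and TNF-LTBR 1 and dim on control 3 and TNF-LTBR 2, the lower 12 are the reverse, and control 1 in the middle column lies between for most, outside for Lepr (11.8) and with side 2 for Cck (4.2).

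The interferon response was higher on side 2. Of 27 type I interferon response genes with a probe set, 23 passed the filter, of which 17 were higher and 0 lower by the rule, against the background of 2.85% and 4.36%. The median side difference was 1.73, against 0.007 over all genes. The mean of the 23 genes was 8.76 and 9.27 on side 1, 9.88 on control 1, and 10.53 and 10.77 on side 2 in log2(intensity + 16). Both side 2 arrays were above the other 3, and control 1 lay between the sides.

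The members apart included transcription factors, RNA sensors and antiviral effectors. Stat2, which encodes a transcription factor of the interferon receptor, read 380 and 335 on side 1, 609 on control 1, and 1567 and 1899 on side 2, a side difference of 2.22 ± 0.32 (SD, n = 2). Irf9, which encodes its DNA-binding partner, differed by 1.22, and Irf7, which encodes a factor that amplifies interferon production, by 2.21. The RNA sensor genes Dhx58 and Ifih1 differed by 2.99 and 1.55, although a second, dimmer probe set of Dhx58 differed by -0.05. Ifit1, whose product binds viral RNA, read 532 and 1094 on side 1, 2197 on control 1, and 4558 and 4782 on side 2. Its sides did not overlap, and its side difference was 2.59 ± 0.67. Usp18, which encodes the enzyme that removes the ubiquitin-like protein ISG15 and damps the receptor, read 254 and 400 on side 1, 1106 on control 1, and 2693 and 2671 on side 2, a side difference of 3.01 ± 0.45. Rtp4 differed by 2.99, Oasl2 by 2.74, Ifit3 by 2.72, Bst2 by 2.37 and Oas1a by 2.34. The 6 members not apart ran from -1.22 for the nucleic acid sensor gene Zbp1 to 1.04 for Rsad2.

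Genes usually linked to interferon γ followed in part. Of 9 inducible GTPase genes, which act against intracellular pathogens, 5 were higher on side 2 and 0 lower, with a median of 1.43. Gbp6 differed by 2.83, Gbp3 by 2.05, Gbp7 by 2.01 and Iigp1 by 1.84. In the MHC class I list, 2 of 10 genes past the filter were apart and all 10 had positive side differences, with a median of 0.72. H2-K1, a heavy chain gene, read 1851 and 5441 on side 1, 3750 on control 1, and 5674 and 14461 on side 2. Its sides did not overlap, but TNF-LTBR 1 came close to control 3. Close copies in the H2, Gbp and Oas families can share probe sequence, so their separate levels are uncertain.

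The promoter windows of these genes were read for the core of the interferon-stimulated response element, the site bound by STAT and IRF factors. The motif searched was GAAA, any 2 bases, GAAA, on both strands, with overlapping matches allowed as in Oas1a, in RefSeq windows of 300 bases (250 before the start site and 50 after, GRCm38.p6). It was in the window of 4.0% of 27025 genes, of 9 of the 16 tested type I interferon genes with a window, and of 6 of 7 GTPase genes. Among all tested genes with a window it was in 323 of 8857 (3.6%). Among genes higher on side 2 it was in 30 of 237 (12.7%), and among those lower on side 2 in 17 of 371 (4.6%). The 30 include 7 members of the type I interferon list and 3 of the GTPase list, which were listed as interferon genes. Within the type I interferon list the motif was in 7 of 12 members that were higher and in 2 of 4 that were not. The sequences below are from 4 members higher on side 2, shown because their promoters carry the motif, in capitals. A match is a description of these letters and not a measured site.
Ifit1 (GRCm38.p6 chr19:34640755-34640843, + strand): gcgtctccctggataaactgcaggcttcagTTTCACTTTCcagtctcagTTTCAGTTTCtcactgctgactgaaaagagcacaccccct
Ifit3 (GRCm38.p6 chr19:34583343-34583446, + strand): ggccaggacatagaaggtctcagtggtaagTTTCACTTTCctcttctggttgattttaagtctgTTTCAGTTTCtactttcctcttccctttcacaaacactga
Oas1a (GRCm38.p6 chr5:120907500-120907575, - strand): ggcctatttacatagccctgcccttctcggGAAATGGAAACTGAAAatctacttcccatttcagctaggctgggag
Stat2 (GRCm38.p6 chr10:128270248-128270315, + strand): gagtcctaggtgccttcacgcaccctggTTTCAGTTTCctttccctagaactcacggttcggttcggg

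Genes of secreted inflammatory proteins were followed in 3 lists. Of 16 CC chemokine genes, 10 passed the filter, 4 were lower on side 2 and 0 higher, with a median of -1.22. The lower genes include the supplied marker Ccl11. Ccl8, which encodes a monocyte attractant, read 6760 and 9300 on side 1, 361 on control 1, and 255 and 515 on side 2, a side difference of -4.39 ± 0.36 (SD, n = 2). Ccl7, which encodes another, read 2870 and 7590 on side 1, 257 on control 1, and 106 and 1906 on side 2. The sides did not overlap, but the matched differences were far apart, as the side difference of -3.27 ± 1.82 shows. Ccl2, with a side difference of -1.86 ± 1.81, was not apart by the rule. In the RefSeq gene table Ccl2, Ccl7, Ccl11, Ccl12 and Ccl8 follow one another on chromosome 11.

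Of the CXC chemokines, 9 passed the filter, with 2 lower, 1 higher and a median of 0.25. Cxcl5, which encodes a neutrophil attractant, read 566 and 891 on side 1, 30.5 on control 1, and 42.7 and 55.7 on side 2. Cxcl10, an interferon-inducible chemokine gene, ran the other way and read 72.7 and 85.6 on side 1, 130 on control 1, and 239 and 549 on side 2. Il6, which encodes interleukin 6 and was picked with its values in view, read 1185 and 1196 on side 1, 39.1 on control 1, and 33.5 and 33.7 on side 2, a side difference of -4.60 ± 0.01.

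Of 5 acute phase genes that passed the filter 4 were lower on side 2, with a median of -3.59. With no filter the median was -1.59. The filter can favour genes bright on 1 side, such as Ptx3, which passed it through side 1. Saa3, which encodes serum amyloid A3, read 866 and 10801 on side 1, 78.7 on control 1, and 127 and 380 on side 2. The sides did not overlap, and within side 1 the TNF-LTBR array was far above the control. Ptx3, which encodes the pattern recognition protein pentraxin 3, differed by -4.29, the haptoglobin gene Hp by -3.59 and the iron-binding lipocalin gene Lcn2 by -2.96. The ceruloplasmin gene Cp differed by 0.59 and was not apart. Cp has 8 probe sets, and with each probe set counted on its own the list median was 0.56.

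Macrophage genes were lower on side 2, and their list includes the supplied markers Lyz1 and Lyz2. Of 21 with a probe set, 11 passed the filter, 7 were lower and 1 higher, with a median of -1.37. The summed intensity of the 21 was 17195 and 18661 on side 1, 8015 on control 1, and 4643 and 5757 on side 2. A large part of the side 1 sums came from the supplied markers, Lyz1 (5505 and 6014) and Lyz2 (3409 and 3934). The sum is therefore not a measure of the list as a whole. C1qb, a chain of complement component C1q, read 655 and 606 on side 1, 509 on control 1, and 65.4 and 35.9 on side 2. Its partner chains C1qa and C1qc, below the filter, read 437 and 370, and 336 and 258, on side 1 but at most 7.0 on side 2. The colony stimulating factor receptor gene Csf1r differed by -1.30, the surface receptor gene Adgre1 by -1.77, Cd68 by -1.37 and the adaptor gene Tyrobp by -1.81. Mpeg1, which encodes the pore-forming protein perforin-2, was the exception and read 456 and 522 on side 1, 189 on control 1, and 1131 and 1937 on side 2. The leukocyte gene Ptprc read 66.5 and 75.2 on side 1 and 12.3 and 21.8 on side 2, and the macrophage gene Aif1 at most 9.0 on these 4 arrays. The part of macrophage RNA in the differences of Lyz1, Lyz2, Ctss and the chemokine genes was not tested.

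Matrix genes divided between the sides. All 7 small leucine-rich proteoglycans past the filter, of 10 with a probe set, had positive side differences, with 4 higher on side 2, 0 lower and a median of 1.81. The higher genes include the supplied marker Lum. These proteoglycans bind collagen fibrils and set their thickness. Besides Lum, Omd read 231 and 142 on side 1, 421 on control 1, and 4014 and 2363 on side 2. Ogn and Aspn, which lie beside Omd on chromosome 13, differed by 2.26 and 1.81, and for Aspn control 1 read 62.7, below both sides. Decorin, encoded by Dcn, differed by 1.31 ± 0.75 and was not apart.

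The main fibrillar collagens were alike on both sides within 2-fold, with side differences of 0.38 for Col1a1, 0.14 for Col1a2 and 0.08 for Col3a1. Of 21 collagen genes past the filter 4 were higher on side 2 and 5 lower, with a median of 0.08. The 3 chains of type VI collagen, a microfibril near cell surfaces, were all higher. Col6a2 read 3536 and 2858 on side 1, 4552 on control 1, and 14856 and 16008 on side 2, and Col6a1 and Col6a3 differed by 1.75 and 1.77. The lower members were Col18a1, Col14a1, Col8a1, Col11a1 and Col12a1, with side differences from -1.98 to -1.25.

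Other matrix genes went both ways. Among 20 glycoprotein and elastic fibre genes 7 were lower and 3 higher, with a median of 0.00. Tnc, which encodes tenascin-C, a matrix protein of injured tissue, read 1720 and 1356 on side 1, 1000 on control 1, and 104 and 79.2 on side 2, a side difference of -3.85 ± 0.01 (SD, n = 2). The hyaluronan synthase genes Has1 and Has2 differed by -2.02 and -2.85, the microfibril gene Mfap5 by -2.73, Fbln1 by -2.48 and the periostin gene Postn by -2.24. The higher members were Tnxb at 1.82, Fbln5 at 1.31 and Matn2 at 1.19. Of 15 proteases and inhibitors 4 were lower and 0 higher, among them the cathepsin genes Ctss at -4.67 and Ctsk at -3.82 and the metalloprotease inhibitor gene Timp1 at -2.75.

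Fibroblast and smooth muscle lists had medians near 0 with members far apart in both directions. The fibroblast list of 17 had 6 lower, 2 higher and a median of -0.03. These counts include the supplied markers Thy1 (lower) and Lum (higher). Fap, which encodes an activated fibroblast protease, differed by -2.77, Cd34 by -3.17 and Serpinf1 by -5.21, while Dpt, which encodes the matrix protein dermatopontin, differed by 1.88. The summed intensity of the 18 fibroblast genes with a probe set was 109669 and 107925 on side 1, 73108 on control 1, and 104926 and 106734 on side 2. In this sum the lower Thy1 and the higher Lum offset each other, and bright genes such as Col1a2 weigh most. It does not measure fibroblast content. In the smooth muscle list of 11, Tagln and Acta2 were lower and Itga8 and Lmod1 higher, with a median of -0.10. Tagln, which encodes the actin-binding protein transgelin, read 2335 and 1315 on side 1, 3308 on control 1, and 72.1 and 19.4 on side 2. Among pericyte genes the potassium channel subunit gene Abcc9 differed by 2.87, the adhesion molecule gene Mcam by -3.16 and the receptor gene Notch3 by -1.68. In the endothelial list of 8 past the filter, Emcn at -2.59 and Esam at -1.23 were lower, and Kdr, Flt1 and Eng were not apart.

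Imprinted genes are expressed from the copy of 1 parent, and several regulate growth. Of 9 past the filter 4 were lower and 0 higher, with a median of -1.11. Grb10, which encodes an adaptor that damps insulin receptor signalling, read 8992 and 5949 on side 1, 1321 on control 1, and 164 and 142 on side 2, a side difference of -5.44 ± 0.28 (SD, n = 2). Meg3, a non-coding RNA, read 3664 and 2206 on side 1, 4598 on control 1, and 281 and 232 on side 2. Igf2 differed by -2.27 and Peg3 by -1.94, while Cdkn1c and Plagl1 differed by 0.05 and 0.48. Of the 10 insulin-like growth factor genes 4 were lower and 0 higher, with a median of -0.84.

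Cell division genes were lower on side 2. Of 21 DNA replication and mitosis genes past the filter 12 were lower and 0 higher, with a median of -1.17. Mki67, a marker of dividing cells, read 480 and 938 on side 1, 387 on control 1, and 154 and 269 on side 2. Rrm2, which encodes a subunit of the enzyme that makes DNA building blocks, differed by -2.19 ± 0.03, Birc5 by -1.77, Ccna2 by -1.74 and Top2a by -1.70. Several replication genes were not apart, among them Pcna at 0.25, Mcm4 at 0.12 and Mcm6 at 0.51. With the filter tightened to the brightest 40% of genes, which leaves fewer members, the list median was -0.24. The cell cycle inhibitor gene Cdkn2b differed by -1.69, and Gadd45a, a DNA damage and stress gene, by 2.32.

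**Figure D4:**
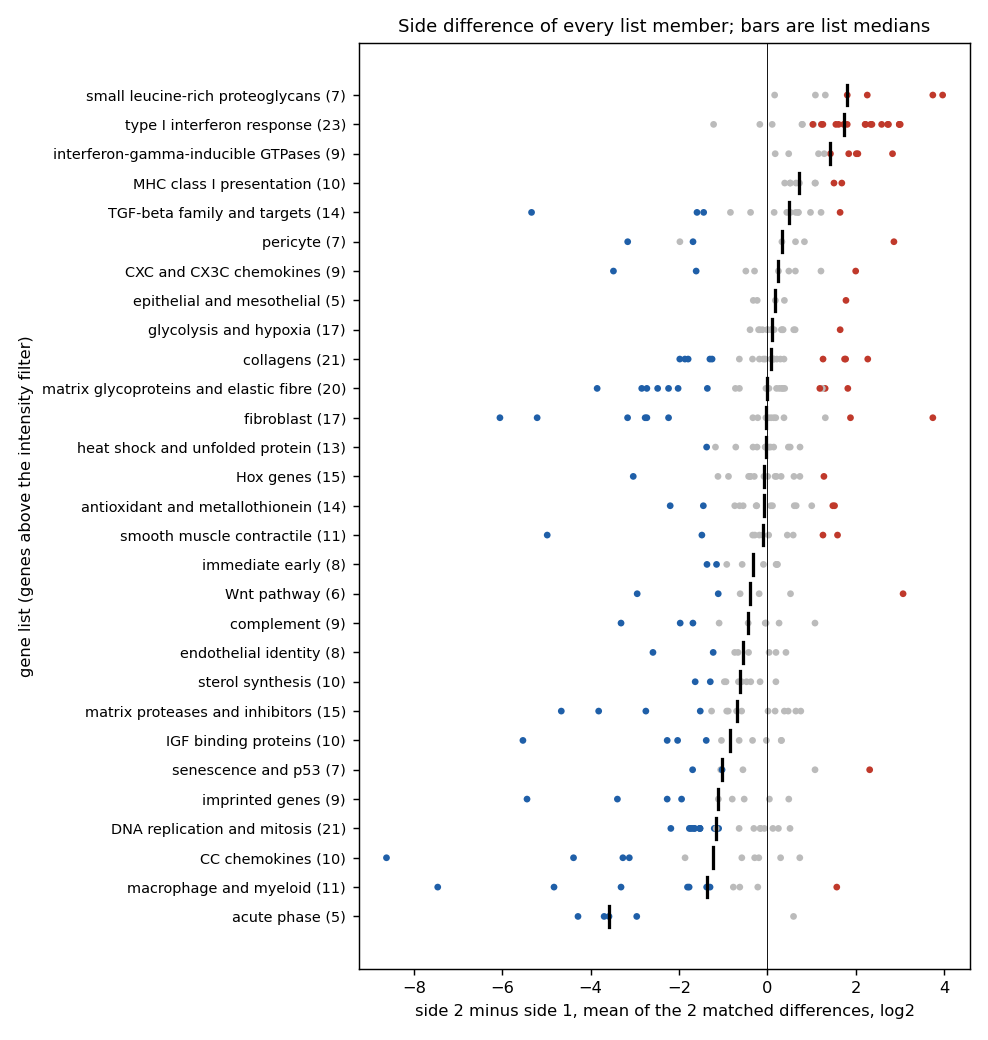
Side difference (log2) of every member past the filter in the 29 gene lists with at least 5 such members, ordered by list median (black bars), with members higher on side 2 in red, lower in blue and not apart in grey. Proteoglycans, interferon response genes and inducible GTPases lie at the top with medians of 1.81, 1.73 and 1.43, and macrophage and acute phase genes at the bottom with -1.37 and -3.59.

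Signalling and patterning lists had members apart in both directions. Ltbp2, which encodes a microfibril protein related to those that store latent TGF-β, read 5187 and 7094 on side 1, 101 on control 1, and 53.2 and 310 on side 2, within a TGF-β list of 14 with 3 lower, 1 higher and a median of 0.48. Dkk2, which encodes a secreted Wnt regulator, read 664 and 524 on side 1, 3265 on control 1, and 4804 and 5370 on side 2. The ligand gene Wnt5a differed by -2.95, and the Wnt list of 6 had 2 lower, 1 higher and a median of -0.40. Hox genes, which record position along the body axis, had 13 of 15 members not apart and a median of -0.08. Hoxc8 read 1045 and 720 on side 1, 84.1 on control 1, and 98.8 and 84.9 on side 2, and Hoxb5 differed by 1.28. Transcription factor genes picked with their values in view were Tbx20 at 3.49, Pparg at 2.94, the progesterone receptor gene Pgr at 2.92, Foxa2 at 2.75 and Nkx2-3 at 2.63, all higher on side 2.

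The glycolysis, heat shock and antioxidant lists had medians near that of all genes, while other housekeeping and stress lists were lower. The sterol synthesis list of 10 had 2 lower, 0 higher and a median of -0.62. A senescence and p53 list of 7 had 2 lower, 1 higher and a median of -1.03. The immediate early list of 8 had 2 lower, 0 higher and a median of -0.33. Of 17 glycolysis and hypoxia genes 1 was higher, Ndrg1 at 1.65, and 0 lower, with a median of 0.10. Of 13 heat shock and unfolded protein genes 1 was lower, Hspb1 at -1.38, with a median of -0.04. The antioxidant list of 14 had 2 higher and 2 lower, the lower ones being the heme oxygenase gene Hmox1 at -2.20 and the metallothionein gene Mt2 at -1.45. Lists for lymphocytes, MHC class II and neutrophils or mast cells kept at most 1 member past the filter, and none was apart. In the epithelial and mesothelial list 1 of 5 was apart, Msln, which encodes mesothelin, at 1.78. Among other probe sets of the named genes that passed the filter, 101 of 103 had the direction of the one used.

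Control 1 lay between the side means for 592 of the 787 genes apart (75.2%). These genes were chosen for wide gaps between the arrays of the sides, which can favour a place between them. No comparison value was computed for the counts in this paragraph. On a scale where the mean of side 1 is 0 and that of side 2 is 1, its median position was 0.425, with quartiles of 0.171 and 0.711. It was nearer to side 1 for 454 genes and nearer to side 2 for 333. All 17 apart interferon genes and all 12 apart cell division genes had control 1 between the side means. Il6, Cck, Hoxc8 and Cxcl5 in control 1 were as low as on side 2, with positions of 0.97, 1.03, 1.03 and 1.14, while Tagln and Meg3 were above both side 1 arrays.

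**Figure D5:**
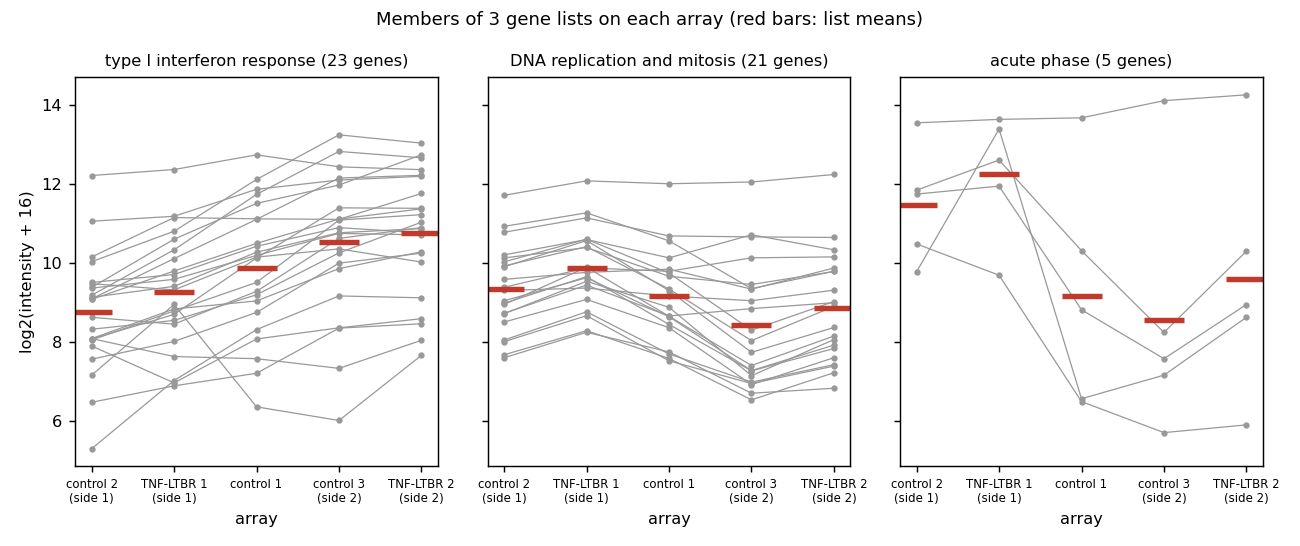
Values of log2(intensity + 16) of every member past the filter in 3 lists on the 5 arrays, with lines joining the same gene and red bars for list means. Interferon response means climb from 8.76 and 9.27 on side 1 over 9.88 on control 1 to 10.53 and 10.77 on side 2. Acute phase means are 11.49 and 12.26 on side 1, 9.18 on control 1, and 8.56 and 9.61 on side 2.

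Whether TNF-LTBR differed from control was then asked within this split, with side as a covariate. This treatment contrast was not used to choose the sides and is balanced across them. With limma on the 4 arrays, 100 genes (0.916%) rose and 93 (0.852%) fell at a Benjamini-Hochberg adjusted p under 0.05. The fit had 1 residual degree of freedom, and since the sides were chosen on the same arrays its residual spread can be too small. None of the calls held in limma without the intensity trend, where 0 genes passed and 1418 had an unadjusted p under 0.05, or without side as a covariate, where 0 passed and 113 had one.

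By size, 6 genes past the threshold were named, of which Ccl5, Ccl2, Nfkbie, Ccl7 and Saa3 rose and Fgl2 fell. Ccl5, Ccl2 and Nfkbie are known targets of NF-κB. Ccl5, which encodes a T cell attractant, read 11.8 in control 2 and 1498 in TNF-LTBR 1, and 8.6 in control 3 and 750 in TNF-LTBR 2, with 146 in control 1. Both TNF-LTBR arrays were above all controls. Its mean treatment difference was 5.36 (limma adjusted p = 0.000673), and 3.93 with 64 added, since the controls of both sides were dim and the size depends on that value. Nfkbie, which encodes an inhibitor of NF-κB, rose by 2.80 on side 1 and 3.23 on side 2 (limma adjusted p = 0.000673). Fgl2, which encodes a secreted fibrinogen-like protein, fell by 2.87 and by 2.03 (limma adjusted p = 0.0028). Each of these p-values reached 1 under at least 1 alternative.

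Other genes differed in how far they moved on each side. Ccl2 was 1.88 higher with TNF-LTBR on side 1 and 4.44 on side 2 (limma adjusted p = 0.0238 for the mean). In control 2 it read 3997 and in control 3 only 438, while the TNF-LTBR arrays read 14768 and 9853. Ccl7 had the same pattern, with 1.398 and 3.97 (limma adjusted p = 0.0456), and Saa3 the reverse, with 3.62 and 1.47 (limma adjusted p = 0.0299). With 1 array in each cell, the difference between sides in these treatment differences was not tested. H2-K1 rose by 1.55 and 1.35 (limma adjusted p = 0.001), on top of a side difference of 1.51 ± 0.14 (SD, n = 2). Icam1, an adhesion molecule gene picked with its values in view (limma adjusted p = 0.0047), read 975 and 3039 on side 1, 818 on control 1, and 120 and 706 on side 2. It was lower on side 2 by 2.47 on the log2 scale and higher with TNF-LTBR by 1.62 and 2.41, so that TNF-LTBR 2 remained below control 2.

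Treatment differences of the interferon genes are given by side. Their list mean was 8.76 in control 2 and 9.27 in TNF-LTBR 1, and 10.53 and 10.77 in control 3 and TNF-LTBR 2. TNF-LTBR was above control for 19 of the 23 members on side 1, with a median difference of 0.45, and for 15 on side 2, with a median of 0.11. Over all genes the median treatment difference, averaged over the sides, was -0.01. The share of all genes above control on each side was not computed. By limma's adjusted p, 3 members rose and 0 fell. These were Zbp1, by 1.79 and 1.65 on the sides, Bst2, by 1.22 and 0.77, and Ddx58, by 1.00 and 0.66. Dhx58 differed by 1.73 on side 1 and -0.05 on side 2, and Rtp4 by 1.15 and -0.16, neither past the threshold. The differences between sides were not tested. Across all genes the treatment differences of the sides, which share no array, had a Pearson correlation of 0.389. TNF-LTBR was at least 2-fold above control for 102 genes on side 1 and 123 on side 2, of which 35 were shared, and at least 2-fold below for 94 and 72, of which 16 were shared. Of the 193 genes past the limma threshold, 72 were also apart between the sides, which is 37.3% of the former and 9.15% of the 787 latter genes. Over all 10916 genes 7.21% were apart and 1.77% passed the limma threshold.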

How the data were processed

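The authors deposited 1 linear intensity for each probe set and array, made with GCOS 1.4 per the submitters' processing notes. How probes were summarised is not given in the sources used here. These intensities were taken as deposited and transformed as log2(intensity + 16). Of 45101 probe sets, 34958 carried 1 gene symbol in the platform annotation, 932 several and 9211 none, and only the first were named. Each of 18194 genes was represented by its brightest probe set, and the 60% of genes with the highest mean over the 5 arrays were kept (10916 genes, mean log2 value at least 7.17, an intensity of about 128.2). A gene bright on only 1 side could pass this filter through that side.

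The sides, the marker genes, the 37 gene lists (508 genes, 465 with a probe set of 1 symbol) and the rules were chosen with earlier results of these data known. Named were the 12 genes per direction with the largest smaller matched difference, the supplied markers, up to 4 apart members per list (or, where none, up to 2 defining members), sex-linked genes, and up to 6 genes past the treatment threshold. Other genes were picked with their values in view, as said at Il6 and the transcription factors, or are further members of the lists. The treatment test used limma 3.58.1 under R 4.3.3 (lmFit, eBayes with trend, two-sided, side as covariate) and was first tested on simulated data. Promoter windows came from RefSeq (GRCm38.p6). The number of arrays limits the precision. Alternatives were other pseudocounts, filters, normalizations and probe set rules, fits without the trend or side, a replicate block, and leaving arrays out in turn.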

Additional observations from a re-analysis of the deposited data

Results flagged for a closer look

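Ccl6, which encodes a CC chemokine, had treatment differences of opposite sign on the sides. TNF-LTBR minus control was 1.38 on side 1 and -1.85 on side 2, so the treatment difference of side 2 minus that of side 1 was -3.23 on the log2(intensity + 16) scale. The intensities were 364 in control 2, 972 in TNF-LTBR 1, 117 in control 3, 21.0 in TNF-LTBR 2 and 572 in control 1. With 1 array in each cell this difference was not tested.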

How the results depend on the processing

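With 2 matched arrays a side, each SD rests on 2 differences. The 165 single genes followed kept their direction in all 1061 values under the alternatives that kept every array. These genes were followed because they were apart with no overlap, so a reversal was nearly excluded in advance. Among the list medians 1 reversed, the acute phase list with every probe set on its own (0.56). Genes higher on side 2 numbered 193 with the 40% filter, 576 with every probe set on its own and 468 when any 1 array was left out, which leaves 1 matched difference. Genes lower on side 2 numbered 231 with the 40% filter, 743 with no filter, 789 with every probe set and 638 to 668 with an array left out. With a pseudocount of 64 the medians were 1.49 (type I interferon), -0.96 (cell division) and 1.64 (proteoglycans). With the 40% filter they were 2.01 (type I interferon), -0.24 (cell division) and -1.03 (macrophage), and with no filter 1.20 (proteoglycans) and -1.59 (acute phase). With every probe set they were 1.22 (type I interferon), -0.95 (cell division), 1.31 (proteoglycans) and -1.56 (macrophage). Leaving out an array gave 1.39 to 1.61 for the GTPases and -3.61 to -3.0 for the acute phase list. The cause of these shifts was not tested.

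The treatment test called 64 genes with the 40% filter, 118 without probe sets of shared-sequence suffixes, and 134 to 289 under other pseudocounts, filters, normalizations and probe set rules. Limma called 0 genes without the trend (1418 at an unadjusted p under 0.05), 0 on 4 arrays without side (113), 0 on all 5 arrays without side (192), and 0 with the replicate block on all 5 arrays without side (175). The groups share only 2 replicate numbers. Deviations from group means correlated at 0.127 for replicate 1 and -0.799 for replicate 2. The deviations of the 2 TNF-LTBR arrays mirror each other, and the replicate 2 arrays were placed on opposite sides. The value for replicate 2 therefore follows from the split. For replicate 1 it also depends on control 1, which was on neither side. Whether arrays of the same number share a culture or animal cannot be read from these correlations.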
